A study of Acipenser schrenckii with 6 samples.

Results

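Aminoacyl-tRNA ligases, also called aminoacyl-tRNA synthetases, were followed in the gut of Amur sturgeon (Acipenser schrenckii) given a commercial feed or fresh worms. Members were the rows of the deposited table whose product name contained "--tRNA ligase", "tRNA synthetase" or "aminoacyl tRNA synthase complex-interacting". The rule found 71 of 82023 features. Names with the word mitochondrial made up a mitochondrial class of 20 members, and the other 51 formed the cytosolic class. Of the 51, 46 were ligases and 3 were complex-interacting multifunctional proteins, which are scaffold proteins of the multi-synthetase complex. The other 2 were related proteins that carry a synthetase-like domain without being named as a ligase.

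Each ligase joins 1 amino acid to the tRNAs that read its codons, and so supplies the ribosome with charged tRNA. For most but not all amino acids, vertebrates keep separate enzymes for the cytosol and for the mitochondrial matrix, all of them encoded in the nucleus. In mammals, ligases for several amino acids are held together in the multi-synthetase complex, others work outside it, and many cytosolic ligase genes are targets of the amino acid response, in which uncharged tRNA activates the kinase GCN2 and transcription factors such as ATF4 act downstream. The gut epithelium is a tissue of rapid renewal and heavy protein secretion.

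Gut RNA was selected for poly(A) tails and sequenced, in 3 libraries from fish on commercial feed and 3 from fish on fresh Limnodrilus, an aquatic oligochaete worm reared in the water that supplied the fish. Both diets were given for 30 days to hatchery fish kept in net cages before release, to ask whether the worm diet alters gene expression. Neither the age nor the strain of the fish is stated beyond a similar genetic background, and nothing states if each library held 1 fish or several. The p-values below therefore rest on library-to-library spread, some of which may be technical. Values are FPKM, fragments per kilobase of feature length scaled to the library total.

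The libraries were not alike within a diet, and some of their measures also set the diets apart. Depth recovered from the deposited values was 9.95 to 10.5 M reads in the commercial feed libraries and 13.9 to 19.7 M in the Limnodrilus libraries. Reads on the mitochondrial genome made up 23.7% of commercial feed library 1 and 2.06% to 6.42% of the other 5, and rRNA made up 0.931% to 2.87% in the commercial feed libraries against 0.157% to 0.360% in the Limnodrilus libraries. Depth and rRNA share thus did not overlap between the diets, and the part of either in the results was not tested. Gut markers were present: none of the 10 enterocyte brush border symbols and none of the 9 smooth muscle symbols was at 0 in every library. Their summed FPKM moved in opposite directions across the commercial feed libraries, with brush border at 84.7, 403 and 3408 and smooth muscle at 15368, 8948 and 1214 in libraries 1 to 3. In Limnodrilus libraries 1 to 3 the brush border sum was 2005, 9138 and 3797 and the smooth muscle sum was 5951, 4098 and 4606. In bulk tissue, fewer cells of a type and less RNA per cell cannot be told apart, and the part that tissue composition played in any result was not tested.

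Cytosolic ligases were higher in the Limnodrilus libraries at 19 loci, and mitochondrial ligases at 2. Testing required 1 FPKM or more on average across libraries, a level met by 44 of the 51 cytosolic and 15 of the 20 mitochondrial members. With limma-trend on log2(FPKM + 1) and Benjamini-Hochberg adjustment over 23644 features, 19 cytosolic members rose and 0 fell at an adjusted p under 0.05, and 25 did not pass. Over all features tested, 14.0% rose and 3.64% fell. The median log2 fold change, Limnodrilus minus commercial feed, was 1.06 in the cytosolic class and 0.24 over all features. In the mitochondrial class 2 of 15 rose, 0 fell, and the median log2 fold change was -0.25, with a sign that changed with the processing. Whether the classes differ was not tested.

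The calls depended on which libraries were in the fit. Leaving out 1 Limnodrilus library left 4, 6 and 2 cytosolic members called (without library 1, 2 and 3), while the calls over all features went from 4182 to 739, 707 and 638. Leaving out commercial feed library 1, 2 or 3 gave 15, 10 and 20 cytosolic calls, beside 3438, 1862 and 6295 calls over all features. All of these cytosolic calls were rises, and the share of all features that rose was 2.79%, 2.71% and 2.38% without Limnodrilus library 1, 2 or 3 and 10.3%, 6.26% and 20.7% without commercial feed library 1, 2 or 3. The filter let in 5 cytosolic and 3 mitochondrial members whose commercial feed mean was below 1 FPKM, which could pass only through the Limnodrilus libraries; 4 and 2 of these rose. Of the 39 cytosolic members with a commercial feed mean of 1 FPKM or more, 15 rose, and so did 0 of the 12 such mitochondrial members. This split uses the commercial feed values that also enter the fold changes. The share of all features split in the same way was not computed, so these counts are a description only.

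**Figure D1:**
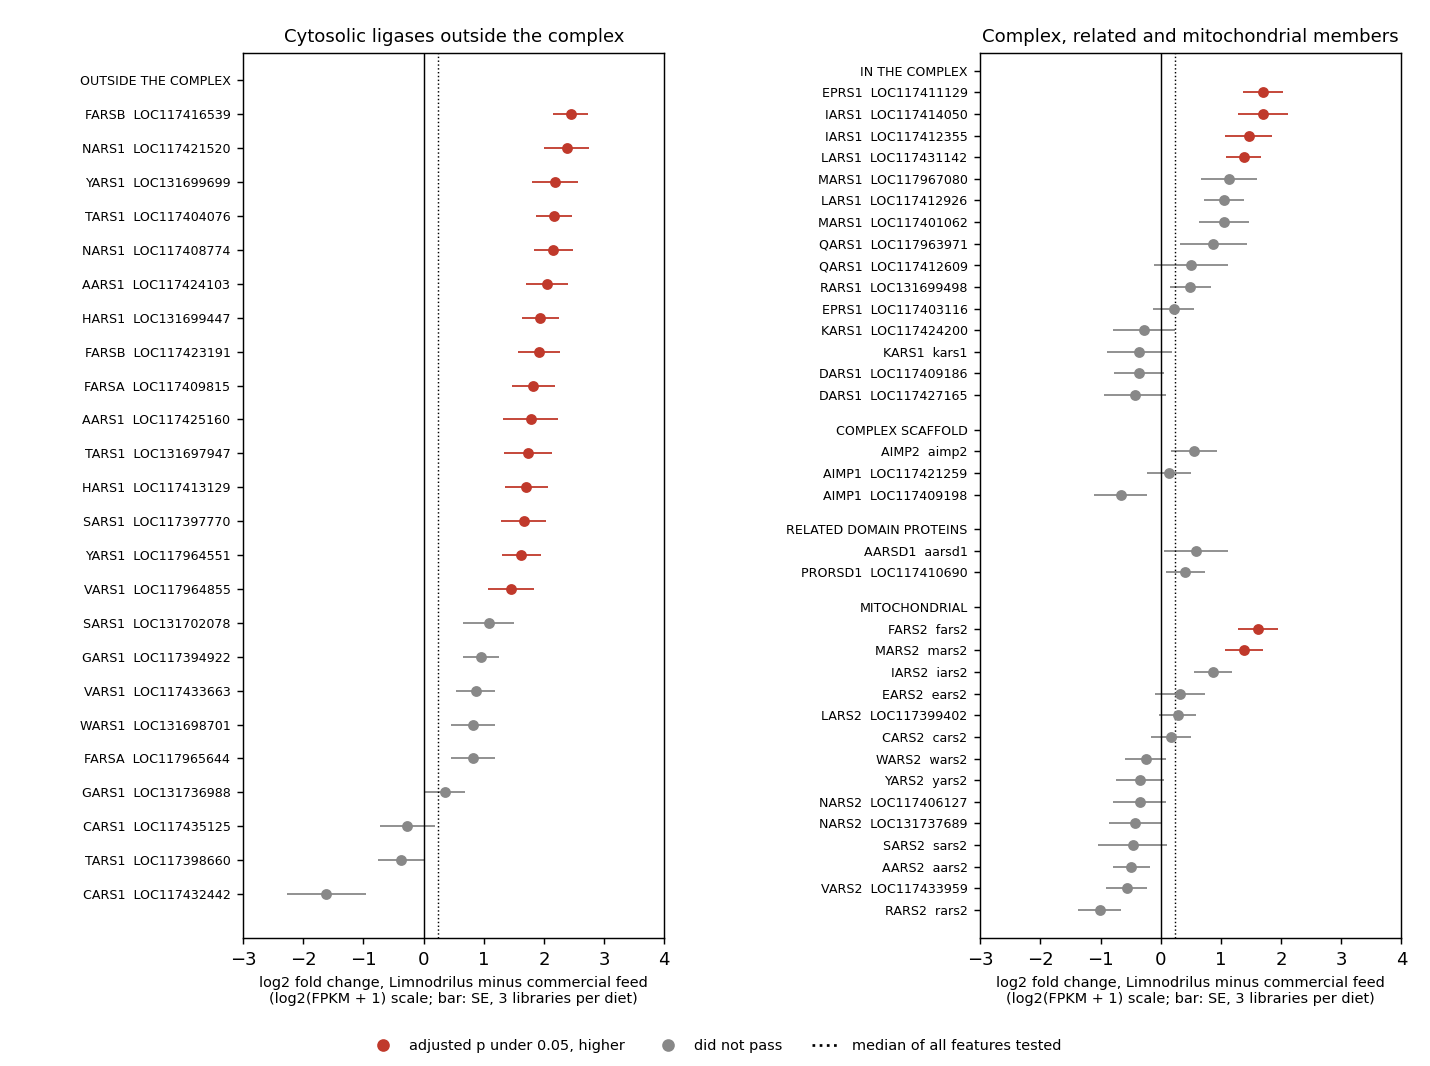
Log2 fold change of the tested members reported here on the log2(FPKM + 1) scale, Limnodrilus minus commercial feed, with its standard error from limma-trend (3 libraries per diet); red points passed an adjusted p of 0.05, grey points did not, and the dotted line is the median of all 23644 features, 0.24. Ligases outside the multi-synthetase complex fill the left panel and 15 of its 24 points are red, while the right panel holds 4 red points of 15 in the complex and 2 in the mitochondrial class. The left panel holds all 5 cytosolic members that passed the filter only through the Limnodrilus libraries, and 4 of these are red.

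The ligases that in mammals work outside the multi-synthetase complex carried most of the calls. Of 24 tested loci, 15 rose, beside 14.0% of all features, and the median log2 fold change was 1.69. All 5 cytosolic members that passed the filter only through the Limnodrilus libraries lay in this group, and 4 of them are among the 15. The 4 are LOC117423191, LOC117409815, LOC131697947 and LOC117964551, and the other is LOC117433663. The filter thus raised this count and not that of the ligases in the complex. Without Limnodrilus library 1, 2 or 3 the count was 4, 5 and 2, and without commercial feed library 1, 2 or 3 it was 13, 10 and 15. The 15 were both loci for alanine, asparagine, histidine, tyrosine and the phenylalanine beta subunit, 2 of the 3 tested loci for threonine, and 1 of 2 for serine, valine and the phenylalanine alpha subunit. In each of the 19 cytosolic members that rose, every Limnodrilus library lay above every commercial feed library. A call with 3 libraries per diet favours such separation, so in called members it adds no support of its own. Such separation was seen in 25 of the 44 tested cytosolic members, against 28.4% of all features, and the reverse in 1, against 11.5% of all features.

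Phenylalanine--tRNA ligase is a tetramer of an alpha subunit, which holds the catalytic site, and a beta subunit. The beta subunit locus LOC117416539 (NC_081200.1:3967109-3982024) read 3.31, 2.71 and 2.89 FPKM in the commercial feed libraries and 22.4, 17.1 and 22.6 in the Limnodrilus libraries. The 3 values within each diet lay close together, on 64 to 81 reads against 736 to 915. Its log2 fold change of 2.44 (SE 0.29, adjusted p = 0.00758, limma-trend) was the largest among the members, and it stayed past the threshold without each library in turn. The second beta locus, LOC117423191, was lower, at 1.11, 0.824 and 0.563 against 4.73, 4.45 and 9.37 FPKM (log2 fold change 1.92, adjusted p = 0.0152). For the alpha subunit, LOC117409815 read 0.889, 0.443 and 0.035 against 4.48, 2.75 and 5.09 FPKM (1.82, SE 0.36, adjusted p = 0.0177), where 0.035 FPKM was 1 read. Both LOC117409815 and LOC117423191 passed the filter only through the Limnodrilus libraries. The more abundant alpha locus, LOC117965644, missed the threshold, at 5.22, 5.61 and 9.60 against 13.8, 9.05 and 15.1 FPKM (0.82, adjusted p = 0.154). Its commercial feed library 3 overlapped Limnodrilus library 2.

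Asparagine--tRNA ligase charges the tRNA of an amino acid that cells can make with asparagine synthetase. LOC117421520 read 4.49, 4.42 and 3.51 FPKM on commercial feed and 30.4, 15.6 and 34.8 on Limnodrilus, a log2 fold change of 2.38 (SE 0.38, adjusted p = 0.011, limma-trend). LOC117408774 read 6.20, 4.48 and 7.62 against 25.0, 30.3 and 36.1 FPKM, a log2 fold change of 2.16 (SE 0.33, adjusted p = 0.0103). The copies were of like level and both separated the diets, although Limnodrilus library 2 was the lowest of its diet in the first and the middle one in the second.

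Threonine--tRNA ligase had 5 loci of unlike behaviour. LOC117404076 (NC_081189.1:14611846-14630446) read 1.27, 0.709 and 1.22 FPKM on commercial feed and 8.69, 6.73 and 9.44 on Limnodrilus. Its log2 fold change was 2.17 (SE 0.30, adjusted p = 0.00864, limma-trend), and with LOC117416539 it was 1 of 2 members called without each library in turn. LOC131697947, which passed the filter only through the Limnodrilus libraries, read 1.25, 0 and 1.14 against 4.30, 4.10 and 5.56 FPKM (1.73, adjusted p = 0.0249). LOC117398660 read 5.24, 4.498 and 1.64 against 2.38, 2.37 and 2.63 FPKM, an overlap between the diets (-0.38, adjusted p = 0.527). On commercial feed that locus was the most abundant of the 5 in each library, and on Limnodrilus it lay below LOC117404076 and LOC131697947. The last pair, LOC131705175 and LOC117395468, stayed under the mean of 1 FPKM and was not tested.

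Tyrosine--tRNA ligase LOC131699699 read 2.59, 4.91 and 7.29 FPKM against 23.7, 22.9 and 26.7, a log2 fold change of 2.18 (SE 0.38, adjusted p = 0.0133, limma-trend). The Limnodrilus libraries differed little while the commercial feed libraries ranged widely below them. Its copy LOC117964551, which passed the filter only through the Limnodrilus libraries, read 0.383, 1.24 and 1.05 against 3.68, 5.30 and 5.32 FPKM (1.63, adjusted p = 0.0184). Alanine--tRNA ligase, which recognises its tRNA through a single base pair of the acceptor stem and needs no anticodon contact, rose at both loci. LOC117424103 read 1.36, 1.56 and 2.41 against 13.2, 6.91 and 12.1 FPKM (2.05, SE 0.35, adjusted p = 0.0125). LOC117425160 read 0.925, 3.43 and 3.15 against 13.7, 6.15 and 12.6 FPKM (1.78, SE 0.45, adjusted p = 0.0356). Limnodrilus library 2 was the lowest of its diet at both alanine loci.

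Histidine--tRNA ligase was among the steadier of the risers within the Limnodrilus diet. LOC131699447 read 3.36, 2.71 and 4.54 against 13.4, 16.9 and 18.7 FPKM (log2 fold change 1.94, SE 0.32, adjusted p = 0.0114, limma-trend), and LOC117413129 read 6.41, 3.43 and 7.94 against 19.9, 19.4 and 22.9 FPKM (1.71, adjusted p = 0.0206). Serine--tRNA ligase, which also serves selenocysteine tRNA, split by locus. LOC117397770 rose, from 5.98, 12.6 and 6.96 to 28.7, 22.3 and 33.7 FPKM (1.66, adjusted p = 0.0246). LOC131702078 separated the diets by a narrow margin without passing, at 7.23, 20.4 and 9.35 against 26.0, 21.6 and 27.1 FPKM (1.08, adjusted p = 0.113). Valine--tRNA ligase LOC117964855 rose from 1.89, 1.68 and 4.26 to 9.56, 6.12 and 10.1 FPKM (1.45, adjusted p = 0.0376).

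Outside the complex 9 tested loci did not pass, among them each tested locus for glycine, cysteine and tryptophan. The second valine locus, LOC117433663, was another, with the diets apart at 0.213, 0.463 and 0.795 against 1.95, 1.19 and 1.97 FPKM (0.86, adjusted p = 0.101). Glycine--tRNA ligase LOC117394922 read 21.7, 26.0 and 20.8 FPKM against 40.4, 48.6 and 46.2, a log2 fold change of 0.95 (SE 0.31) with an adjusted p of 0.0689 by limma-trend. The diets were well apart at this locus, where the level was already high on commercial feed. Tryptophan--tRNA ligase LOC131698701 read 2.91, 2.57 and 4.56 against 8.93, 4.24 and 7.24 FPKM (0.82, adjusted p = 0.153). Cysteine--tRNA ligase LOC117432442 was the member with the most negative value. It read 33.1, 43.1 and 206 FPKM on commercial feed and 21.6, 22.4 and 19.3 on Limnodrilus (-1.62, SE 0.66, adjusted p = 0.128). Its diets did not overlap, but commercial feed library 3 stood far above libraries 1 and 2, and the value depended on it. Without library 3 the log2 fold change was -0.81 (adjusted p = 0.0884), and with library 3 as the sole commercial feed library it was -3.23 (adjusted p = 0.0176). The other cysteine locus, LOC117435125, overlapped between diets.

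The ligases that in mammals sit in the multi-synthetase complex rose at 4 of 15 tested loci, beside 14.0% of all features, with a median log2 fold change of 0.88. Without Limnodrilus library 1, 2 or 3 the count was 0, 1 and 0, and without commercial feed library 1, 2 or 3 it was 2, 0 and 5. The bifunctional glutamate/proline--tRNA ligase, 1 polypeptide that charges both tRNAs, rose at LOC117411129 from 7.54, 6.34 and 10.5 to 28.8, 22.7 and 33.9 FPKM (1.70, SE 0.34, adjusted p = 0.0177, limma-trend). Its copy LOC117403116 stayed between 1.19 and 3.14 FPKM in all 6 libraries, with the diets overlapping (0.22, adjusted p = 0.687).

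Isoleucine--tRNA ligase rose at both loci, and leucine--tRNA ligase, whose mammalian counterpart also reports leucine to the growth kinase mTORC1, rose at 1 of 2. LOC117412355 for isoleucine read 5.31, 5.69 and 5.82 FPKM against 22.5, 9.93 and 22.3 (log2 fold change 1.46, adjusted p = 0.0392, limma-trend). LOC117414050 for isoleucine read 1.28, 1.24 and 3.001 against 10.1, 4.49 and 10.4 FPKM (1.70, adjusted p = 0.0317). In both, Limnodrilus library 2 stood below the other 2 of its diet but above every commercial feed library. LOC117431142 for leucine read 2.79, 3.06 and 3.56 against 10.03, 8.27 and 10.999 FPKM (1.38, SE 0.29, adjusted p = 0.0202), and its copy LOC117412926 had an adjusted p of 0.0662.

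Lysine, aspartate, glutamine, arginine and methionine ligases in the complex did not pass at any locus. Lysine--tRNA ligase, which forms a dimer on the scaffold protein AIMP2, was the most abundant cytosolic ligase. Its locus kars1 read 58.3, 235 and 82.5 FPKM on commercial feed and 71.6, 103 and 73.2 on Limnodrilus (-0.36, SE 0.54, adjusted p = 0.678, limma-trend), with commercial feed library 2 far above the rest. Aspartate--tRNA ligase LOC117427165 read 28.1, 34.6 and 106 against 34.5, 30.6 and 39.7 FPKM (-0.43, adjusted p = 0.599). There commercial feed library 3 stood apart. Glutamine--tRNA ligase LOC117412609 read 10.1, 18.5 and 56.7 against 35.5, 20.9 and 43.6 FPKM (0.50, adjusted p = 0.604). Its commercial feed values ranked the 3 libraries as the brush border sum did. The mean log2(FPKM + 1) over all features tested had that order too, at 2.35, 2.51 and 2.77. Arginine--tRNA ligase LOC131699498 read 21.4, 12.8 and 19.8 against 21.8, 26.0 and 28.1 FPKM (0.49, adjusted p = 0.34). Methionine--tRNA ligase LOC117967080 read 2.16, 6.37 and 4.67 against 12.9, 5.70 and 14.1 FPKM (1.14, adjusted p = 0.128), and Limnodrilus library 2 lay inside the commercial feed range.

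The scaffold loci that the product-name rule took in, those of AIMP1 and AIMP2, overlapped between diets and 0 of 3 passed. A further scaffold protein outside that rule rose and is given below with the factors that handle tRNA. AIMP1, whose mammalian counterpart binds the arginine and glutamine ligases, had LOC117421259 at 27.6, 35.0 and 28.9 FPKM against 23.9, 47.8 and 32.7 (0.14, adjusted p = 0.82, limma-trend). LOC117409198, the second AIMP1 locus, read 26.8, 48.3 and 33.4 against 12.6, 26.0 and 31.1 FPKM (-0.67, adjusted p = 0.318). AIMP2 read 23.9, 33.8 and 23.6 against 30.7, 61.3 and 33.1 FPKM (0.55, adjusted p = 0.351). The 2 related proteins did not pass either: aarsd1, which in mammals edits mischarged alanine tRNA, had an adjusted p of 0.471, and the prolyl-tRNA synthetase associated domain protein LOC117410690 one of 0.415.

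Summing the loci of each enzyme showed how the pool of cytosolic ligases was built. Of 20 cytosolic enzymes, 10 rose and 0 fell in a fit with the loci summed, where 14.0% of 23624 features rose. The alpha and beta subunits of phenylalanine--tRNA ligase count as 2 of the 20, and of these only beta rose. The largest values of this summed fit were the phenylalanine beta subunit, at 4.42, 3.54 and 3.46 against 27.1, 21.6 and 32.0 FPKM (log2 fold change 2.53, SE 0.31, adjusted p = 0.00757, limma-trend), and asparagine, at 10.7, 8.90 and 11.1 against 55.4, 46.0 and 71.0 FPKM (2.36, adjusted p = 0.00862). Asparagine moved from 10.2 ± 1.18 to 57.4 ± 12.6 FPKM (mean ± SD, n = 3 each). Serine, with a summed adjusted p of 0.0536, and the phenylalanine alpha subunit, with 0.0687, lost the call that 1 of their loci had.

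The 7 ligases most abundant on commercial feed did not pass in that summed fit. This order uses the commercial feed values that also enter the fold changes. Lower values at its top and higher ones at its bottom are therefore partly built in, and a link between level and change was not tested. Lysine, cysteine and aspartate ligases had the highest commercial feed means, at 172, 139 and 104 FPKM, and their Limnodrilus means were 116, 56.1 and 70.5 FPKM. The 4 ligases lowest on commercial feed were those for valine at 3.099 FPKM, tryptophan at 3.36, the phenylalanine beta subunit at 3.80 and alanine at 4.28. Their Limnodrilus means were 10.3, 7.33, 26.9 and 21.6 FPKM, and all but tryptophan (adjusted p = 0.109, limma-trend) rose. The highest ligase stood 36.7, 146 and 80.2 times above the lowest in the commercial feed libraries and 11.03, 28.3 and 13.9 times above it in the Limnodrilus libraries, so the levels lay closer together on the worm diet. The level of the median enzyme was 8.75, 7.91 and 10.4 FPKM in the commercial feed libraries and 29.7, 25.5 and 32.4 FPKM in the Limnodrilus libraries. The total over the 20 enzymes overlapped, at 373, 639 and 820 FPKM against 756, 643 and 836, and the lysine, cysteine and aspartate ligases held 56.5%, 70.7% and 71.0% of it on commercial feed against 31.6%, 37.1% and 29.9% on Limnodrilus. Commercial feed means of those 3 enzymes lean on single libraries, with lysine at 77.2, 313 and 128 FPKM and cysteine at 68.5, 70.0 and 277 FPKM.

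**Figure D2:**
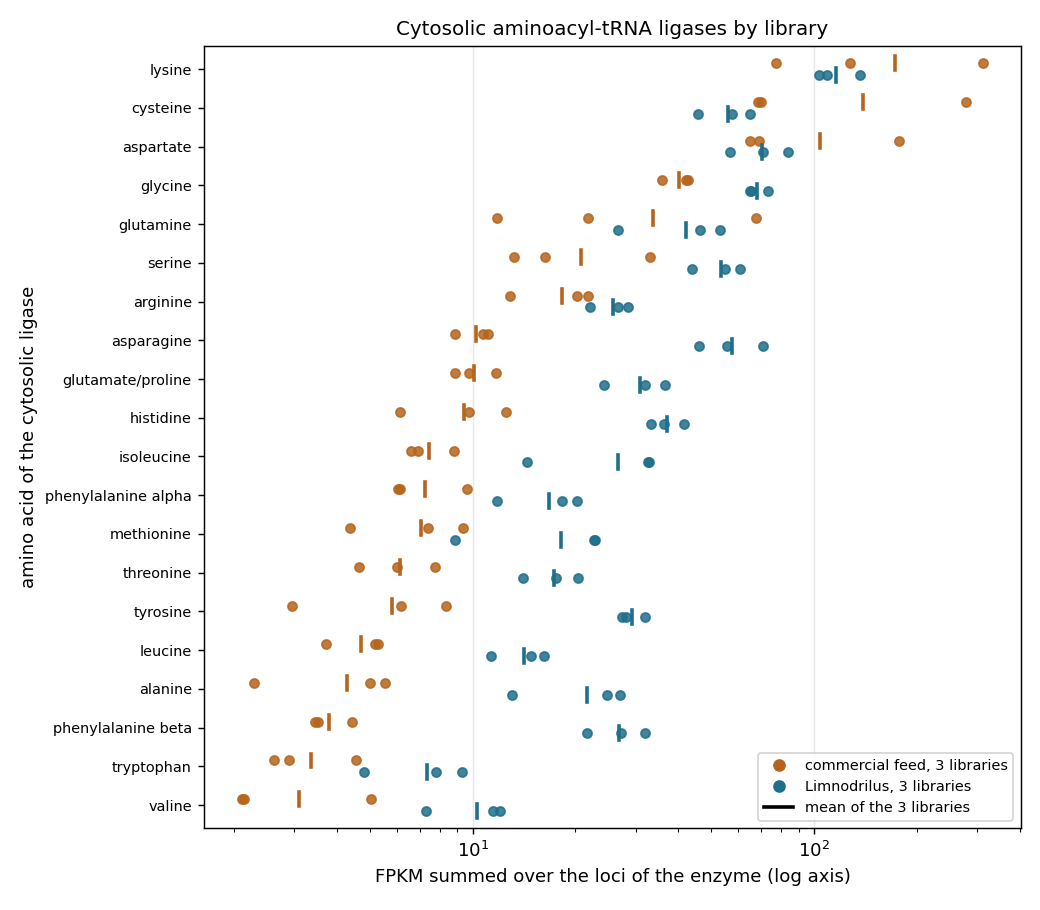
FPKM of each cytosolic ligase in each library, summed over its loci, on a log axis, ordered by the commercial feed mean; points are libraries and short bars are means of 3. Lysine, cysteine and aspartate head the list with overlapping or lower Limnodrilus points, and from asparagine (10.2 FPKM on commercial feed) downwards the blue points sit to the right of the brown ones, apart from methionine, where Limnodrilus library 2 overlaps. The order itself uses the commercial feed values being compared.

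Nearly every cytosolic enzyme was present in duplicate, and copies of several enzymes lay on the same pairs of sequences, far apart along them. Of the 18 enzymes with 2 or more tested loci, both or all loci rose in 6, some rose in 6 and none rose in 6. The 2 phenylalanine subunits are again counted apart. On 6 pairs of sequences, copies of 2 or 3 members recurred together. NC_081189.1 and NC_081190.1 each carried a locus for asparagine, for threonine and for AIMP1, of which the asparagine and threonine loci rose and the AIMP1 loci did not pass. NC_081210.1 and NC_081211.1 each carried loci for arginine, histidine and leucine. NC_081207.1 and NC_081208.1 each carried an alanine locus that rose and a lysine locus that did not. Reads from near-identical copies may have been shared or split in counting, which the sources used here do not describe, so values of single copies are less certain than the sums. Arginine was the extreme case, with LOC117412940 and LOC117431255 at 0 in every library and LOC131728431 at no more than 0.665 FPKM, beside 12.8 to 28.1 FPKM at LOC131699498. The lysine locus LOC131734618 was at 0 as well.

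The mitochondrial class had 2 members that rose of 15 tested (13.3%, near the 14.0% of all features). Both passed the filter only through the Limnodrilus libraries. Phenylalanine--tRNA ligase fars2, a single chain unlike its cytosolic tetramer, read 0.718, 0.484 and 0.777 FPKM on commercial feed and 2.86, 6.16 and 3.74 on Limnodrilus (log2 fold change 1.62, SE 0.33, adjusted p = 0.0198, limma-trend). Methionine--tRNA ligase mars2, which charges the tRNA for both the initiating and the internal methionine of mitochondria, read 0.374, 0.660 and 0.626 against 3.87, 2.04 and 3.45 FPKM (1.38, SE 0.32, adjusted p = 0.0262). Both were low on commercial feed, on 10 to 22 reads, and stood clear of that level in every Limnodrilus library. Neither call survived the loss of any 1 Limnodrilus library, and a minimum mean of 5 FPKM removes both genes from the test. The second methionine locus, LOC117963390, was under the filter, at 0, 0.114 and 0.0538 against 2.69, 0.890 and 2.02 FPKM.

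The other 13 mitochondrial members did not pass. The lowest value was that of arginine--tRNA ligase rars2, at 7.02, 14.9 and 9.31 FPKM against 3.59, 4.92 and 4.85 (-1.02, SE 0.35, adjusted p = 0.0853, limma-trend). Its diets did not overlap, and it passed as lower under median-of-ratios scaling and after removal of the length trend. Alanine--tRNA ligase aars2 lay below as well, at 6.15, 5.85 and 9.12 against 5.63, 4.13 and 4.29 FPKM (-0.49, adjusted p = 0.308). Isoleucine--tRNA ligase iars2 lay above, at 3.78, 5.19 and 2.72 against 8.56, 6.77 and 8.09 FPKM (0.87, adjusted p = 0.0957).

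The remaining 10 mitochondrial members overlapped between diets. Tyrosine--tRNA ligase yars2 was the most abundant, at 17.4, 10.8 and 19.9 against 13.5, 7.67 and 16.6 FPKM (-0.34, adjusted p = 0.579, limma-trend). Serine--tRNA ligase sars2 ranged most within commercial feed, at 3.77, 16.5 and 16.8 FPKM, against 9.40, 4.65 and 8.57 (adjusted p = 0.596). The most abundant loci for tryptophan, asparagine and valine, wars2, LOC131737689 and LOC117433959, had log2 fold changes of -0.25, -0.42 and -0.57. Those for glutamate, leucine and cysteine, ears2, LOC117399402 and cars2, had values of 0.32, 0.28 and 0.17. Proline, with LOC117406455 the higher of 2 loci at 0.545 to 1.85 FPKM, was under the filter. The 5 mitochondrial members that were not tested had means of 0.0609 to 0.981 FPKM over the 6 libraries.

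For 14 amino acids both compartments were set side by side, with the glutamate/proline enzyme standing for both of its amino acids. The quantity is the log2 ratio of cytosolic to mitochondrial ligase, each summed over loci with 1 FPKM added, and for the cytosolic phenylalanine enzyme the mean of its 2 subunits was taken. Its diet mean was higher on Limnodrilus for 12 of the 14 amino acids, as a description of these libraries. Asparagine had ratios of 0.27, -1.13 and 0.78 on commercial feed and 3.04, 2.52 and 2.71 on Limnodrilus. Tyrosine had ratios of -2.21, -0.72 and -1.16 against 0.97, 1.75 and 0.91, and alanine -1.12, -0.19 and -0.63 against 2.08, 1.46 and 2.28. For these 2 and for valine the mitochondrial ligase exceeded the cytosolic one in every commercial feed library and was the lower of the pair in every Limnodrilus library. The exceptions were cysteine and methionine, whose mean ratios differed by -1.15 and -0.66 on the log2 scale. For methionine the mitochondrial sum went from 0.609 ± 0.209 to 4.99 ± 1.86 FPKM (mean ± SD, n = 3 each) while the cytosolic sum overlapped between diets.

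**Figure D3:**
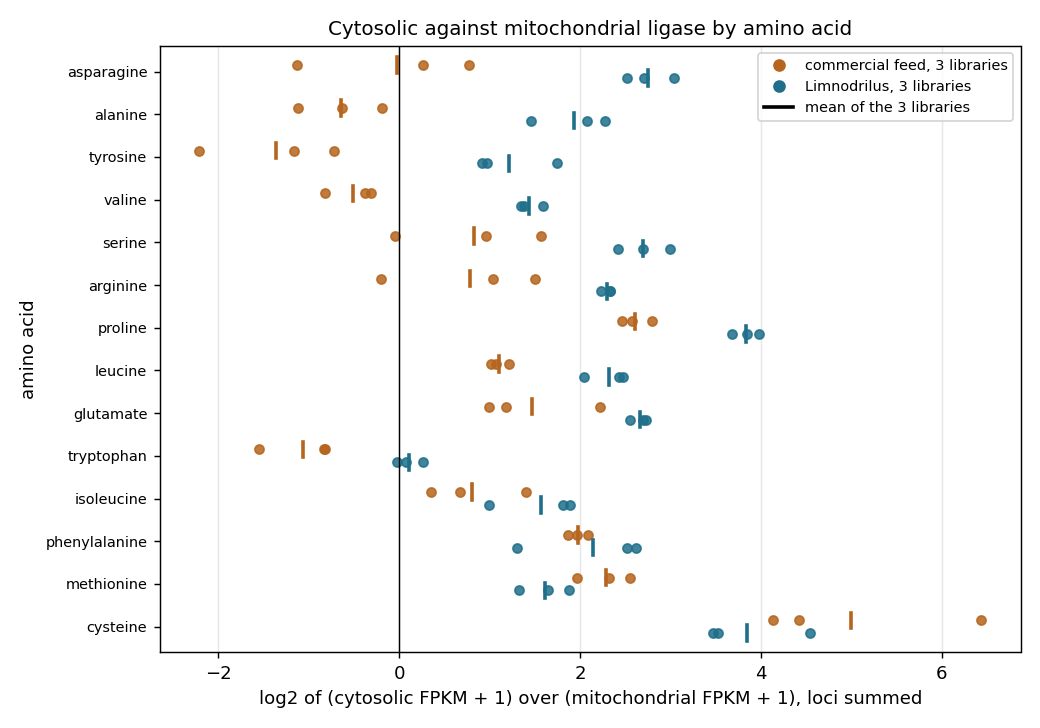
Log2 ratio of cytosolic to mitochondrial ligase FPKM (1 FPKM added to each) for 14 amino acids, 1 point per library and a short bar at the mean of 3, ordered by the difference between diets. Asparagine, alanine, tyrosine and valine head the list with Limnodrilus points clear of the commercial feed points, and methionine and cysteine at the bottom have lower Limnodrilus means, with overlapping points for cysteine.

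Single libraries were often the extreme ones within a diet. Of the 39 tested cytosolic ligases, 31 had their lowest Limnodrilus value in library 2, the deepest library, which also had the highest brush border sum and the lowest pancreatic acinar sum of its diet. On commercial feed 19 of the 39 were highest in library 3, where the brush border and pancreatic acinar sums were highest and the smooth muscle sum lowest. The 6 pancreatic acinar symbols (35 features, no symbol at 0 throughout) summed to 19.98, 104 and 223 FPKM on commercial feed and 308, 39.6 and 505 on Limnodrilus, with the diets overlapping. That sum ranked the libraries within each diet as the mean of the cytosolic ligases did. So did the sum of 9 leukocyte symbols, at 11.98, 25.1 and 149 FPKM on commercial feed and 27.1, 25.6 and 74.5 on Limnodrilus. The mean over all features tested, given below, had the same order. The shared order was thus particular neither to acinar RNA nor to the ligases, and the part of either sum in the result was not tested. Among the 15 tested mitochondrial members, 11 were lowest in Limnodrilus library 2. The mean log2(FPKM + 1) of the 39 cytosolic ligases was 2.56, 2.78 and 3.05 on commercial feed and 3.96, 3.57 and 4.08 on Limnodrilus. For the 15 mitochondrial members it was 1.99, 2.51 and 2.36 against 2.35, 2.16 and 2.62. Over all features tested the mean was 2.35, 2.51 and 2.77 against 2.82, 2.74 and 2.90. The cytosolic ligase mean of each commercial feed library was thus below that of each Limnodrilus library, while over all features commercial feed library 3 and Limnodrilus library 2 overlapped. When commercial feed libraries 1 and 2 were left out, library 3 alone stood for that diet and was assumed to vary like the others. In that fit the median log2 fold change was 0.97 in the cytosolic class and 0.08 over all features. LOC117432442 for cysteine and LOC117427165 for aspartate lay lower, at -3.23 and -1.58.

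Genes of the amino acid response formed the first list set beside the ligases. It held 44 features by product name, of which 39 were tested, 16 rose and 0 fell, with a median log2 fold change of 1.30. Over all features 14.0% rose and 3.64% fell, with a median of 0.24. Without each library in turn, 5 to 18 of the 39 rose and 2.38% to 20.7% of all features did. Both ranges had their low end with Limnodrilus library 3 left out and their high end with commercial feed library 3 left out. Under median-of-ratios scaling, with the length trend removed and with a replicate block, the count was 10 each time. The share of all features that rose was then 9.04%, 9.04% and 8.91%. The 4 of smallest p began with LOC117416155, named DNA damage-inducible transcript 4 protein-like, a family that in mammals restrains mTORC1, at 19.3, 25.8 and 17.5 FPKM against 198, 234 and 133 (3.096, SE 0.37, adjusted p = 0.00758, limma-trend). LOC117966071, a bifunctional methylenetetrahydrofolate dehydrogenase/cyclohydrolase of mitochondrial one-carbon metabolism, read 4.98, 5.42 and 8.01 against 36.6, 41.5 and 31.2 FPKM (2.41, adjusted p = 0.00862). LOC117422127, a glutathione-specific gamma-glutamylcyclotransferase that breaks down glutathione, had a log2 fold change of 2.37 (adjusted p = 0.00903). LOC117424524, a large neutral amino acid transporter, read 0.834, 1.13 and 1.495 against 13.1, 6.90 and 16.2 FPKM (2.54, adjusted p = 0.00934). All 4 separated the diets widely, which a choice by smallest p favours.

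Further members of that list were picked after their values were seen. Asparagine synthetase makes the amino acid whose ligase was among the strongest risers here. LOC117399858 read 1.35, 0.212 and 1.69 FPKM against 22.1, 9.25 and 24.3 (log2 fold change 3.20, adjusted p = 0.00954, limma-trend), and its copy LOC117400669 rose too (1.91, adjusted p = 0.0137). The transcription factor atf5a rose from 7.34, 3.11 and 6.42 to 28.6, 18.9 and 37.3 FPKM (2.16, adjusted p = 0.0163). LOC117434483, a tribbles homolog 3 pseudokinase, rose by 1.36 on the log2 scale (adjusted p = 0.0385). The 2 loci named for ATF4 were level in RNA: atf4a read 27.8, 25.0 and 24.8 against 25.9, 29.0 and 28.8 FPKM (0.10, adjusted p = 0.833), and LOC131734225 had an adjusted p of 0.578. ATF4 is known to be set largely at translation, which RNA levels do not measure, and whether ATF4 acted here was not tested. The GCN2 kinase locus LOC117974001 read 4.78, 5.01 and 6.36 against 4.78, 2.50 and 4.95 FPKM (-0.36, adjusted p = 0.476).

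**Figure D4:**
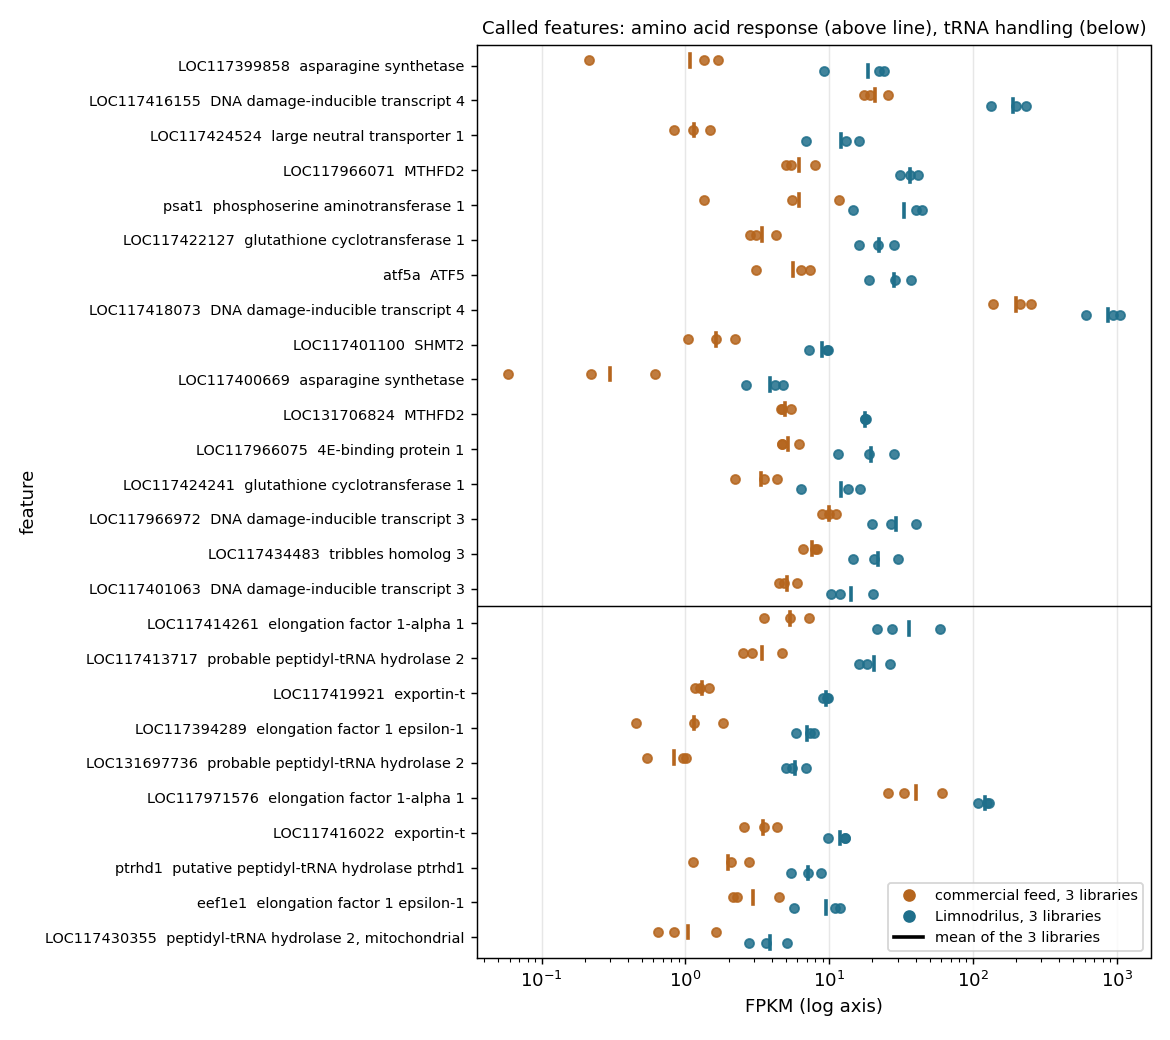
FPKM in each library (log axis) of the 16 features of the amino acid response list that rose (above the line) and the 10 of the tRNA handling list that rose (below it), points for libraries and short bars for means of 3. In each row the 3 Limnodrilus points lie to the right of the 3 commercial feed points, a separation that the choice of called features favours. Features that did not pass are not drawn.

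Factors that handle tRNA just before or after charging formed the second list. Of 43 features 34 were tested, 10 rose and 0 fell, with a median log2 fold change of 0.59, beside the 14.0% of all features that rose. Without each library in turn 2 to 10 rose, fewest without Limnodrilus library 3, over the same range of 2.38% to 20.7% of all features. Median-of-ratios scaling, removal of the length trend and a replicate block each left 6 rises, beside 9.04%, 9.04% and 8.91% of all features. LOC117419921, named exportin-T-like, which carries tRNA out of the nucleus, read 1.45, 1.26 and 1.17 FPKM against 9.06, 9.78 and 9.66 (2.19, SE 0.27, adjusted p = 0.00758, limma-trend), with little spread inside either diet. Peptidyl-tRNA hydrolase frees tRNA from stalled peptides. LOC117413717 of that name read 4.73, 2.53 and 2.93 against 16.3, 18.4 and 26.7 FPKM (2.29, adjusted p = 0.0101), and LOC131697736 rose by 1.89 (adjusted p = 0.0105). LOC117394289, elongation factor 1 epsilon-1, also known in mammals as AIMP3 and a further scaffold of the multi-synthetase complex that the product-name rule does not take in, read 1.82, 0.454 and 1.15 against 5.86, 7.38 and 7.90 FPKM (1.95, adjusted p = 0.0136). Its copy eef1e1, named here after its value was seen, rose as well (1.40, adjusted p = 0.0466), whereas the AIMP1 and AIMP2 loci did not pass.

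Enzymes that modify tRNA bases formed the third list. Of 59 features 49 were tested, 1 rose, 1 fell and the median log2 fold change was -0.09, beside 14.0% and 3.64% of all features. The split changed with the setting: 7 rose and 2 fell without commercial feed library 3, and 0 and 0 without each Limnodrilus library. It was 1 and 5 under median-of-ratios scaling, and 1 and 6 with the length trend removed. Over all 23644 features, rises and falls were 4883 and 1412 without commercial feed library 3. They were 659 and 80, 641 and 66, and 563 and 75 without Limnodrilus library 1, 2 or 3. Median-of-ratios scaling gave 2137 and 1557, and removal of the length trend 2138 and 1542. Both features of the list called in the main fit were dihydrouridine synthases, which reduce uridines of the tRNA body. LOC117399648 read 3.61, 4.03 and 4.36 FPKM against 10.6, 10.99 and 12.5 (1.31, SE 0.28, adjusted p = 0.0217, limma-trend), and LOC117425329 read 3.08, 3.16 and 2.33 against 1.06, 0.106 and 0.512 (-1.35, SE 0.34, adjusted p = 0.0344). LOC117425329 passed the filter only through the commercial feed libraries, so its fall adds no support of its own. Ribosomal proteins were counted beside these lists. In the mitochondrial ribosome 25 of 135 tested features rose (18.5%, near the 14.0% of all features) and 0 fell, with a median of 0.64. The count of rises there was 3, 3 and 2 without Limnodrilus library 1, 2 or 3. It was 13, 10 and 28 without commercial feed library 1, 2 or 3, and 13 under median-of-ratios scaling. In the same order, the share of all features that rose was 2.79%, 2.71%, 2.38%, 10.3%, 6.26%, 20.7% and 9.04%. In the cytosolic ribosome 2 of 163 rose and 7 fell, with a median of -0.32. There 0 rose and 0 fell without each Limnodrilus library, and 0 rose and 20 fell under median-of-ratios scaling. Without commercial feed library 1, 2 or 3 the rises and falls were 2 and 19, 1 and 0, and 2 and 2. All features had 2429 and 1009 without commercial feed library 1, and 1479 and 383 without library 2. The other counts over all features are given above in this paragraph.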

How the data were processed

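The authors deposited 1 table of FPKM for 82023 features with lengths, from 3 gut libraries per diet. The submitters' processing notes list cutadapt 1.9 and a mouse build (mm10), whereas the table has RefSeq sequence names. Assembly, aligner, counter and strand use were not given in the sources used here. Coordinates stand as deposited. The 23644 features that averaged 1 FPKM or more were taken as log2(FPKM + 1) and compared between diets with limma 3.58.1 (trend, 2-sided, R 4.3.3) with Benjamini-Hochberg adjustment over all features and a threshold of 0.05; all adjusted p-values are from limma. The fold understates changes of low features. Depth was recovered from FPKM times length, which gave whole reads, within 0.1, for 89.5% to 95.4% of values, and limma-voom on those reads was an alternative.

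Members and lists were chosen with earlier results of these data known. Genes were named by a rule: per amino acid the most abundant cytosolic and mitochondrial member, the complex-interacting proteins, the 10 called members of largest fold change, and up to 4 called features of smallest p per list; further copies are named so that members are accounted for. Assignment to the multi-synthetase complex follows mammals. Loci of an enzyme were also summed and refitted. On simulated data with known changes the fit was tested. Alternatives were pseudocount, filter, scaling, trend, replicate block and leaving out libraries; removal of the length trend was chosen after seeing the data. With 3 against 3 libraries an exact permutation test of a single value cannot go below 0.1, so none is given. The values of 1 member are not reported here; it stays in the fit and in the class counts.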

Additional observations from a re-analysis of the deposited data

How the results depend on the processing

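The count of 19 cytosolic calls, all rises, was 19 under TPM scaling, limma without trend and without organelle, rRNA and tRNA features, 18 under limma-voom, pseudocount 0.1, median-of-ratios scaling and length trend removed, 15 without a filter and 14 with a mean of at least 5 FPKM. It was 10 with loci summed (of 20 ligases, the 2 phenylalanine subunits counted apart) and 2 to 20 without each library in turn. Without commercial feed libraries 1 and 2 it was 12, of which 10 rose and 2 fell, and 9 of the 19 were among the 10. That fit kept 1 commercial feed library, whose spread was assumed, so its counts are a description only. Over all features falls were nearly as common as rises in it. Its median log2 fold change was 0.97 in the cytosolic class and 0.08 over all features. The 2 mitochondrial calls were 1 under limma-voom, 0 with a mean of at least 5 FPKM, and 0 to 2 without each library in turn. They were 3, all rises, under TPM scaling, without a filter and without organelle, rRNA and tRNA features, of 18, 20 and 17 tested. The share of all features that rose was then 13.6%, 7.19% and 13.2%. Calls over all features, 4182, became 2625 with a mean of at least 5 FPKM and 638 to 6295 without each library. The deposited scaling left a median log2 fold change of 0.24 over all features; median-of-ratios scaling moved it to -0.02 and the split of higher to lower calls from 3321 and 861 to 2137 and 1557 (2138 and 1542 after removal of the length trend). Under that scaling the cytosolic median was 0.76 with 18 higher and 0 lower, and the mitochondrial median -0.56 with 2 higher and 1 lower. The mitochondrial median was positive in some settings and negative in the rest. It was 0.17 under TPM scaling and with loci summed, 0.11 without organelle, rRNA and tRNA features, and 0.087 without a filter. Without commercial feed library 2 it was 0.09, and with commercial feed library 3 alone 0.18.

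With a replicate block the counts were 15 cytosolic, 1 mitochondrial and 2607 over all features. The labels do not say whether library numbers pair the samples. Same-numbered deviations correlated at 0.187, -0.0692 and 0.0747, and the wide spread of libraries within a diet keeps these values from deciding it.

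Signs were compared across settings only for members picked by the naming rule. Among them, reversals of sign were seen in members that did not pass, and the cause was not tested. They were LOC117421259 (-0.17 with the length trend removed, -0.20 with median-of-ratios scaling), cars2 (-0.12 and -0.083 likewise), ears2 (-0.016) and LOC117399402 (-0.038) with the length trend removed. Without commercial feed libraries 1 and 2 they were LOC117412609 (-0.81), LOC131737689 (0.23) and ears2 (-0.16). Without each library in turn, values ran from -0.79 to 0.15 for LOC117427165 (reversed without commercial feed library 3), -0.77 to 0.23 for kars1 (without commercial feed library 2), -0.11 to 0.37 for LOC117421259 (without Limnodrilus library 2), -0.012 to 0.41 for cars2 (without Limnodrilus library 3), and -0.027 to 1.16 for LOC117412609 and -0.082 to 0.56 for ears2 (both without commercial feed library 1). Depth limits the lowest members: for a feature of 1 kb, 3 reads are worth 0.153 to 0.302 FPKM depending on the library, a floor for counting error alone.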
